A study of Mus musculus with 16 samples.

Results

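Genes of the forebrain peptide systems were followed through the brain of mice injected with bacterial endotoxin: the peptide precursors Sst, Vip, Cck, Tac1, Penk, Pdyn and Adcyap1 and the somatostatin receptors Sstr1, Sstr2 and Sstr4. They were picked by symbol, through Ensembl gene IDs, from a table of 33289 genes, so they are 10 of 33289. All 10 were among the 17349 genes that passed the filter on low values. The choice of these genes, and of the gene lists below, was made with earlier results of these data known. Their counts of calls beside the share of all genes are therefore descriptions and no independent test. RNA was sequenced from hemi-brains of C57BL/6J mice aged 3 to 4 months, perfused with PBS and taken 8 h after an injection. The groups were Lcn2-/- mice given lipopolysaccharide (LPS, an outer-membrane component of Gram-negative bacteria that activates innate immunity), Lcn2-/- mice given saline, wild type mice given LPS and wild type mice given saline, with 4 libraries each and 16 in all. Lcn2 encodes lipocalin-2, a secreted protein of the acute phase response. The sources used here give neither the allele nor the LPS dose or route, and do not say whether the samples of a group came from separate litters or batches, so p-values measure only the spread between these samples.

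Levels are given in RPKM (read density scaled by gene length and library size, 2 to the power of the deposited log2 value), and differences as log2 fold changes with limma's SE. A gene was called changed at a Benjamini-Hochberg adjusted p under 0.05 over all genes tested. The table holds no counts, so depth and counting error are unknown. Between 16372 and 16497 genes reached 0.5 RPKM in 15 libraries and 17112 did in saline replicate 4 labelled Lcn2-/-, which also stood apart on the second principal component (0.885, against -0.186 to 0.130 for the others). Lcn2 itself lay at 34.1 to 40.2 RPKM after LPS in the group with the knockout label and at 66.7 to 82.7 RPKM after LPS in wild type, so the mutant group is called "labelled Lcn2-/-" here. After saline it lay at 0.132 to 0.351 RPKM in labelled Lcn2-/- and at 0.065 to 0.204 RPKM in wild type. Pan-neuronal markers were present throughout, with a mean log2 RPKM of 6.27 or more in every library.

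Neuropeptides are cut from larger precursors, stored in dense-core vesicles and released from the same neurons that use GABA or glutamate as a fast transmitter. In cortex and hippocampus somatostatin, vasoactive intestinal peptide and cholecystokinin mark classes of GABAergic interneuron, and cholecystokinin is also made by pyramidal cells. In the striatum enkephalin marks the projection neurons of the indirect pathway, and substance P and dynorphin those of the direct pathway. Somatostatin acts through inhibitory G protein-coupled receptors of the Sstr family. Several of these precursor genes, Sst and Vip among them, are classical targets of the cyclic AMP response element binding protein (CREB), which binds the palindrome TGACGTCA and its core TGACG.

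Promoter windows were read for 8 of the 10 genes from RefSeq (GRCm38.p6), each covering 250 bases before to 50 bases after the annotated start; Penk and Sstr1 had none. The windows below are those of Sst and Sstr2, which held the whole palindrome, and of Vip and Adcyap1, the precursors that were called in both genotypes after LPS. Capitals mark TGACG and its complement CGTCA, which overlap within the palindrome, and all else is in lower case, written 5′ to 3′ on the strand of the gene.
Sst: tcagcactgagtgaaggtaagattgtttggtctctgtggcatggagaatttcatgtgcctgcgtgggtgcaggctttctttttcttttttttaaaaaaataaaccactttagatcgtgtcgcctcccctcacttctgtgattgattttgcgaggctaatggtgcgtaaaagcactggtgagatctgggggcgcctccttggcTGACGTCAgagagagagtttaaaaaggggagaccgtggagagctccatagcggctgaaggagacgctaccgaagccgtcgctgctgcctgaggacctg
Sstr2: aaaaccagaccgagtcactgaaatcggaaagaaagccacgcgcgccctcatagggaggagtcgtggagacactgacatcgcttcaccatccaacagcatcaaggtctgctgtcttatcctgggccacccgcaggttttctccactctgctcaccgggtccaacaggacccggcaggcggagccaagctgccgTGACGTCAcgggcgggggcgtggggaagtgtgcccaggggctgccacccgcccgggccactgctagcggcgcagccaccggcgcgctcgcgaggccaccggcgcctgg
Vip: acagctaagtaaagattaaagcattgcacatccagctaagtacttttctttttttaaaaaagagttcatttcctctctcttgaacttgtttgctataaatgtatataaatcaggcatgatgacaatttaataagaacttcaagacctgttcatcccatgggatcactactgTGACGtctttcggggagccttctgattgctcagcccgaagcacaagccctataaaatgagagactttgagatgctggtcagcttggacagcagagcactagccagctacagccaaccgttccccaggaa
Adcyap1: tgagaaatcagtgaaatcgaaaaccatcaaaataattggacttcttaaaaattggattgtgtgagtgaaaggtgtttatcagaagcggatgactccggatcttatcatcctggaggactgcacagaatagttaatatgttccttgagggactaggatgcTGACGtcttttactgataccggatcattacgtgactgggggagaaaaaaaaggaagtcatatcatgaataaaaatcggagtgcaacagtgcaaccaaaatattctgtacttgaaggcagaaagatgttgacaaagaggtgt
The palindrome lay 48 bases before the start in Sst and 58 bases before it in Sstr2, on chr16:23890795-23891094 (minus strand) and chr11:113619077-113619376 (plus strand). The core alone lay 79 bases before the start in Vip (chr10:5638968-5639267, plus strand) and 91 bases before it in the Adcyap1 window shown (chr17:93198767-93199066, plus strand). On either strand TGACG was found in 6 of the 8 genes with a window (Sst, Sstr2, Vip, Adcyap1, Cck and Tac1) and not within these windows of Pdyn and Sstr4. Over all 32851 promoter windows of 300 bases, 20.8% held TGACG and 1.79% held TGACGTCA. These matches are letters in a window and no measure of binding.

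The 10 genes spanned a wide range of levels. Cck, Penk and Sst were among the most abundant transcripts of the tissue, with geometric means over the 16 libraries of 175, 171 and 161 RPKM, above 99.2%, 99.2% and 99.1% of the genes tested. Their ranges overlapped pair by pair within each group, except that Cck lay above Sst in labelled Lcn2-/- saline libraries and Penk lay above Sst in labelled Lcn2-/- LPS libraries. Vip followed at 16.2 RPKM and was separate from its neighbours in each group. Tac1 (8.83 RPKM), Adcyap1 (7.48 RPKM) and Pdyn (7.30 RPKM) lay close together and changed places between groups: Adcyap1 and Tac1 overlapped after saline in both genotypes, and Pdyn was above Adcyap1 only after LPS, without overlap in wild type LPS libraries and with overlap in labelled Lcn2-/- LPS libraries. The receptors were lowest, at 2.70 RPKM for Sstr2, 2.04 RPKM for Sstr1 and 0.85 RPKM for Sstr4. Sstr4 reached 0.5 RPKM in 15 of 16 libraries, and its values carry the widest spread of the 10 genes, with an SD of up to 0.511 on the log2 scale in a group.

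**Figure D1:**
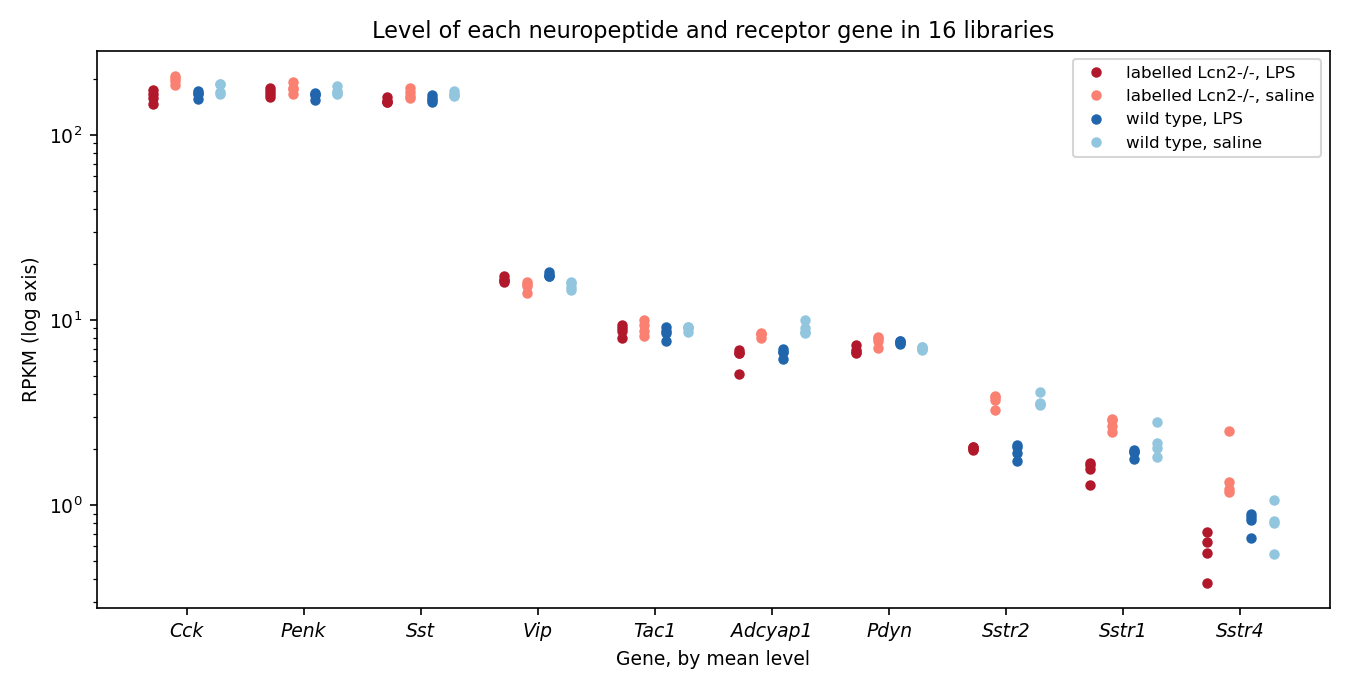
Levels of the 10 genes in RPKM on a log axis, 1 point per library, with the 4 groups side by side. Cck, Penk and Sst lie between 146 and 208 RPKM in every library, while Sstr4 runs between 0.382 and 2.50 RPKM.

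After LPS 8 of the 10 genes were called in the libraries labelled Lcn2-/- and 3 of the 10 in wild type libraries, each against saline. Of all genes tested, 48.3% were called in the labelled Lcn2-/- comparison and 25.3% in the wild type one. Downward calls made up 7 of the 8 in labelled Lcn2-/- (Sst, Sstr1, Sstr2, Sstr4, Cck, Pdyn and Adcyap1), where 27.7% of all genes tested were called lower. In wild type the downward calls were Sstr2 and Adcyap1, where 13.9% of all genes were called lower. Vip was the upward call in both genotypes, against 20.7% of all genes in labelled Lcn2-/- and 11.4% in wild type. The median of the 10 log2 fold changes was -0.23 in labelled Lcn2-/- and -0.08 in wild type, and that of all genes tested was -0.028 in labelled Lcn2-/- and -0.025 in wild type. LPS and saline libraries did not overlap for 6 of the 10 genes in labelled Lcn2-/-, where 42.4% of all genes did not, and for 4 of the 10 in wild type, where 32.4% did not. These RNAs come from whole tissue, so fewer cells of a type and less RNA per cell cannot be told apart.

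**Figure D2:**
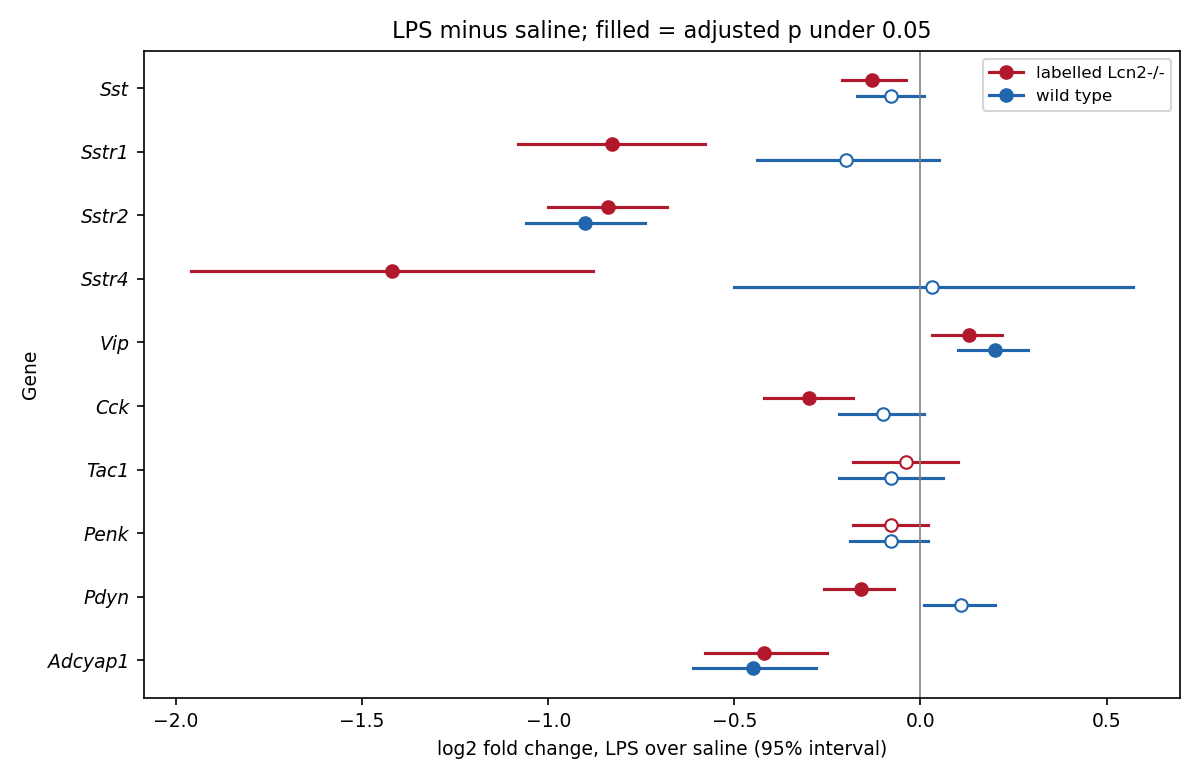
Log2 fold change of each gene, LPS over saline, in libraries labelled Lcn2-/- and in wild type libraries, with 95% intervals from limma; filled symbols were called. Sstr2 and Adcyap1 lie below 0 in both genotypes at nearly the same distance, and Sstr1 and Sstr4 lie far below 0 in labelled Lcn2-/- alone.

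Among the receptors Sstr2 (ENSMUSG00000047904; chr11:113619342-113626028, plus strand, GRCm38), a somatostatin receptor found on principal neurons of many forebrain areas, fell in both genotypes by close to the same factor. It lay at 2.07, 2.02, 2.07 and 1.99 RPKM in labelled Lcn2-/- LPS libraries, against 3.89, 3.70, 3.82 and 3.25 RPKM in labelled Lcn2-/- saline libraries. Wild type libraries held 2.07, 1.74, 1.92 and 2.10 RPKM after LPS, against 4.11, 3.47, 3.51 and 3.54 RPKM after saline. All 8 LPS libraries were below all 8 saline libraries. The log2 fold change was -0.84 ± 0.075 in labelled Lcn2-/- (SE, n = 4 per group; adjusted p = 2.4e-07) and -0.90 ± 0.075 in wild type (adjusted p = 1.7e-07). Sstr2 fell by 44.3% in labelled Lcn2-/- and by 46.5% in wild type, and 4.2% of the genes tested had a lower estimate in labelled Lcn2-/- and 1.5% in wild type. The whole of Sstr2 lies within the span of Slc39a11 on the opposite strand, and the sources used here do not say whether counting used strand; Slc39a11, at 2.05 to 2.90 RPKM, had log2 fold changes of -0.14 ± 0.082 in labelled Lcn2-/- (adjusted p = 0.16) and -0.03 ± 0.082 in wild type (adjusted p = 0.83).

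Sstr1 (ENSMUSG00000035431; chr12:58211772-58214444, plus strand) fell after LPS in libraries labelled Lcn2-/-. Its values were 1.56, 1.28, 1.68 and 1.65 RPKM in labelled Lcn2-/- LPS libraries, against 2.67, 2.48, 2.91 and 2.87 RPKM in labelled Lcn2-/- saline libraries, without overlap. In wild type they were 1.94, 1.93, 1.98 and 1.77 RPKM after LPS, against 2.82, 2.16, 2.04 and 1.83 RPKM after saline, and these groups overlapped. The log2 fold change was -0.83 ± 0.12 in labelled Lcn2-/- (adjusted p = 3.0e-05) and -0.20 ± 0.12 in wild type (adjusted p = 0.24; 95% interval -0.44 to 0.05).

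Sstr4 (ENSMUSG00000037014; chr2:148395344-148396767, plus strand), the least abundant of the 10, also fell in labelled Lcn2-/- libraries. It lay at 0.549, 0.382, 0.712 and 0.630 RPKM in labelled Lcn2-/- LPS libraries, against 1.34, 1.22, 1.18 and 2.50 RPKM in labelled Lcn2-/- saline libraries. Its wild type values were 0.899, 0.826, 0.666 and 0.859 RPKM after LPS, against 1.07, 0.803, 0.826 and 0.546 RPKM after saline, with full overlap. The labelled Lcn2-/- groups did not overlap, and their log2 fold change of -1.42 ± 0.25 (adjusted p = 3.0e-04) was the lowest among the 10 genes. In wild type it was 0.03 ± 0.25 (adjusted p = 0.95; 95% interval -0.50 to 0.57). The highest value, 2.50 RPKM, came from saline replicate 4 labelled Lcn2-/-, the library that stood apart; without it the log2 fold change in labelled Lcn2-/- was -1.16. On log2(RPKM + 0.5), which damps changes at low levels, it was -0.91 and still called.

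**Figure D3:**
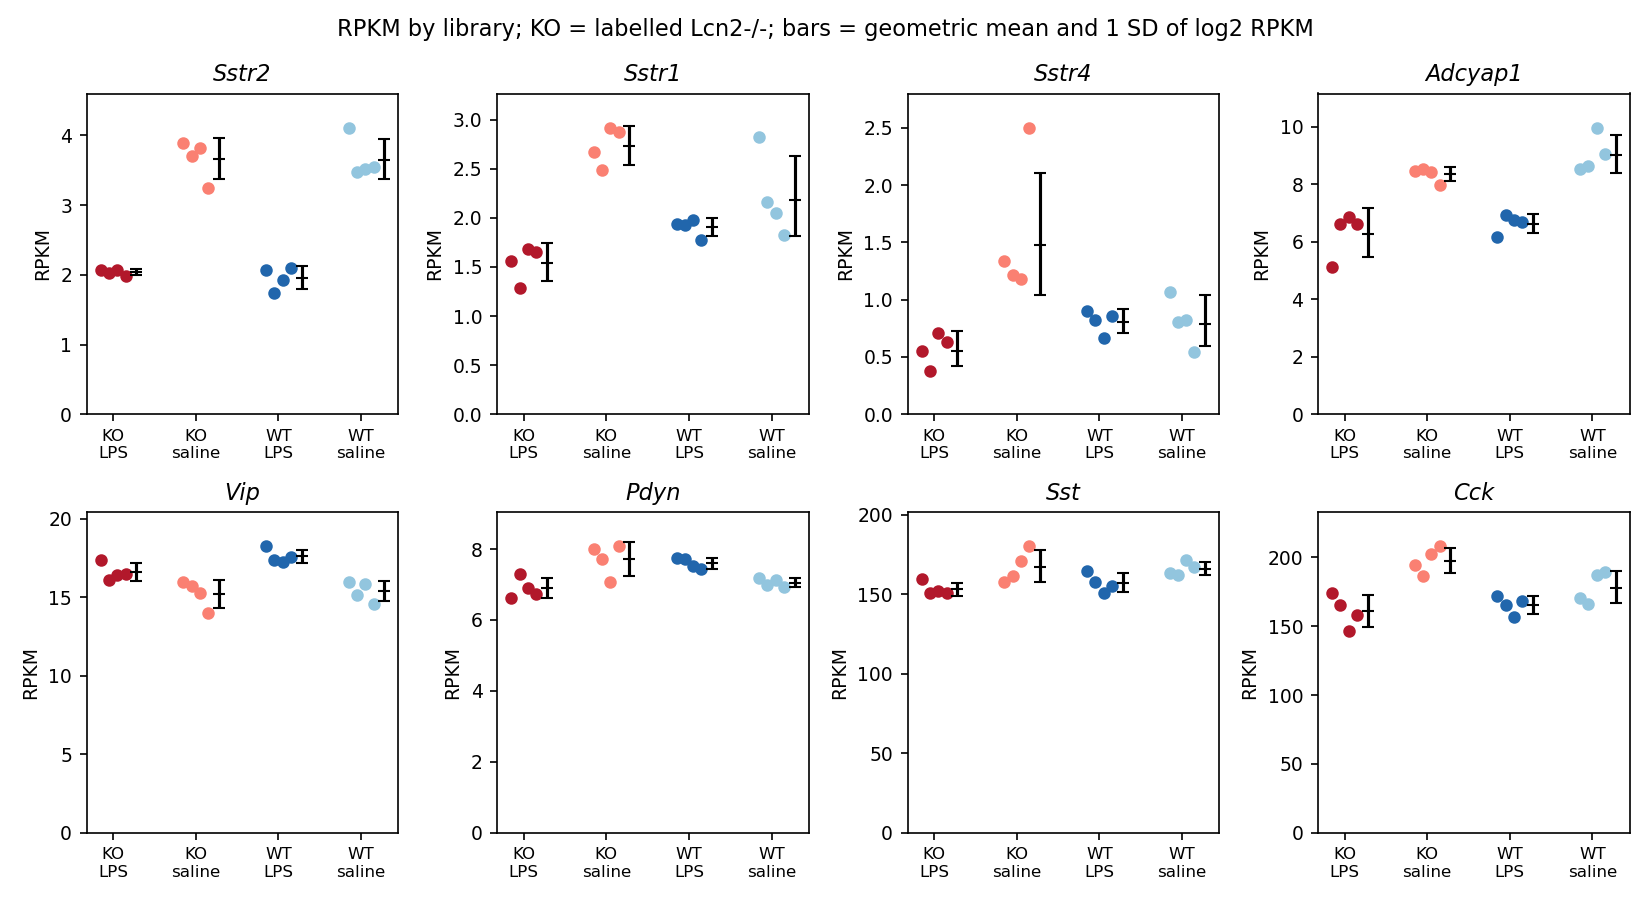
RPKM of 8 of the 10 genes in each library, grouped by genotype label and injection, with the geometric mean and 1 SD of the log2 values. Sstr2 and Adcyap1 drop after LPS under both labels, Sstr1 and Sstr4 drop under the Lcn2-/- label, and Vip lies higher after LPS.

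The ligand gene changed little. Sst (ENSMUSG00000004366; chr16:23889573-23890958, minus strand), the somatostatin precursor, lay at 159, 150, 152 and 150 RPKM in labelled Lcn2-/- LPS libraries, against 157, 161, 171 and 180 RPKM in labelled Lcn2-/- saline libraries. In wild type it lay at 165, 157, 150 and 155 RPKM after LPS, against 163, 162, 172 and 167 RPKM after saline. LPS and saline libraries overlapped in both genotypes. Sst fell by 8.4% in labelled Lcn2-/- (log2 fold change -0.13 ± 0.041, adjusted p = 0.018), and in wild type the log2 fold change was -0.08 ± 0.041 (adjusted p = 0.17). With trends on GC content and transcript length removed, the labelled Lcn2-/- value was -0.06 and no longer called (adjusted p = 0.19), and with the spread taken from those 2 groups alone its adjusted p was 0.058.

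Of the interneuron peptides Vip (ENSMUSG00000019772; chr10:5639218-5647617, plus strand), the precursor of vasoactive intestinal peptide, rose in both genotypes. It lay at 17.4, 16.1, 16.4 and 16.5 RPKM in labelled Lcn2-/- LPS libraries, against 15.96, 15.7, 15.2 and 14.0 RPKM in labelled Lcn2-/- saline libraries. Wild type brains had 18.2, 17.4, 17.3 and 17.5 RPKM after LPS, against 15.98, 15.1, 15.8 and 14.6 RPKM after saline. The groups did not overlap in either genotype. Vip was 1.09-fold as high after LPS in labelled Lcn2-/- (log2 fold change 0.13 ± 0.043, adjusted p = 0.026) and 1.15-fold as high in wild type (0.20 ± 0.043, adjusted p = 0.0032). The labelled Lcn2-/- call was lost without saline replicate 4 (0.09, adjusted p = 0.069), without LPS replicate 1 (0.10, adjusted p = 0.081) and with the spread taken from those 2 groups alone (adjusted p = 0.074).

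Cck (ENSMUSG00000032532; chr9:121489824-121495694, minus strand), the cholecystokinin precursor, lay at 174, 166, 146 and 158 RPKM in labelled Lcn2-/- LPS libraries, against 194, 186, 202 and 208 RPKM in labelled Lcn2-/- saline libraries, without overlap. In wild type it lay at 172, 166, 157 and 169 RPKM after LPS, against 170, 166, 187 and 189 RPKM after saline, with overlap. It fell by 18.6% in labelled Lcn2-/- (log2 fold change -0.30 ± 0.056, adjusted p = 4.4e-04), while the wild type log2 fold change was -0.10 ± 0.056 (adjusted p = 0.20). The saline values under the Lcn2-/- label were the highest of the 4 groups for Cck, at a geometric mean of 197 RPKM.

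Neither Penk nor Tac1, the precursors of 2 striatal peptides, was called after LPS. Penk (ENSMUSG00000045573; chr4:4133531-4138819, minus strand), the enkephalin precursor, averaged 169 RPKM in labelled Lcn2-/- LPS libraries, against 179 RPKM in labelled Lcn2-/- saline libraries, and 163 RPKM in wild type LPS libraries, against 173 RPKM in wild type saline libraries (geometric means). Its log2 fold changes were -0.08 ± 0.047 in each genotype, with 95% intervals from -0.18 to 0.02 in labelled Lcn2-/- (adjusted p = 0.19) and from -0.19 to 0.02 in wild type (adjusted p = 0.22). A stretch of 499 bases of Penk overlaps A830012C17Rik on the other strand, which was called in neither comparison. Tac1 (ENSMUSG00000061762; chr6:7554879-7565834, plus strand), the precursor of substance P, averaged 8.79 RPKM in labelled Lcn2-/- LPS libraries, against 9.03 RPKM in labelled Lcn2-/- saline libraries, and 8.52 RPKM in wild type LPS libraries, against 9.01 RPKM in wild type saline libraries. Neither of its log2 fold changes passed, at -0.04 ± 0.066 (adjusted p = 0.65; 95% interval -0.18 to 0.10) in labelled Lcn2-/- and -0.08 ± 0.066 (adjusted p = 0.42; 95% interval -0.22 to 0.06) in wild type.

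Pdyn (ENSMUSG00000027400; chr2:129686565-129699844, minus strand), the dynorphin precursor, had estimates of opposite sign under the 2 labels. It lay at 6.63, 7.30, 6.91 and 6.73 RPKM in labelled Lcn2-/- LPS libraries, against 8.01, 7.72, 7.06 and 8.08 RPKM in labelled Lcn2-/- saline libraries, with overlap through a single library on each side. In wild type it lay at 7.74, 7.72, 7.51 and 7.43 RPKM after LPS, against 7.17, 6.98, 7.13 and 6.92 RPKM after saline, without overlap. The fall in labelled Lcn2-/- was called (-0.16 ± 0.044, adjusted p = 0.0072), and the higher wild type values were not (0.11 ± 0.044, adjusted p = 0.089), although that comparison passed in 3 of 25 alternatives. Relative to saline, Pdyn fell by 10.6% in labelled Lcn2-/- and was 1.08-fold as high in wild type.

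Adcyap1 (ENSMUSG00000024256; chr17:93199017-93206537, plus strand), the precursor of the pituitary adenylate cyclase-activating peptide PACAP, fell in both genotypes, as Sstr2 did. It lay at 5.11, 6.61, 6.85 and 6.63 RPKM in labelled Lcn2-/- LPS libraries, against 8.45, 8.54, 8.44 and 7.99 RPKM in labelled Lcn2-/- saline libraries. The wild type libraries stood at 6.17, 6.95, 6.75 and 6.68 RPKM after LPS, against 8.52, 8.63, 9.97 and 9.07 RPKM after saline. All LPS libraries were below all saline libraries. Adcyap1 fell by 25.1% in labelled Lcn2-/- (-0.42 ± 0.078, adjusted p = 4.6e-04) and by 26.6% in wild type (-0.45 ± 0.078, adjusted p = 4.8e-04).

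The comparison of the LPS effects themselves, labelled Lcn2-/- minus wild type, asked whether the genotype label changed the response. It called 3 of the 10 genes, Sstr1, Sstr4 and Pdyn, all lower, where 8.82% of all genes tested were called, 4.92% lower. The difference of log2 fold changes was -0.63 ± 0.16 for Sstr1 (adjusted p = 0.029), -1.45 ± 0.36 for Sstr4 (adjusted p = 0.024) and -0.27 ± 0.063 for Pdyn (adjusted p = 0.019). For Sstr2 and Adcyap1 it was 0.06 ± 0.11 (95% interval -0.17 to 0.28) and 0.03 ± 0.11 (95% interval -0.21 to 0.26). Cck, called in labelled Lcn2-/- alone, had a difference of -0.19 ± 0.079 that did not pass (adjusted p = 0.13), and that of Sst was -0.05 ± 0.058 (adjusted p = 0.63). The Pdyn call held in all 24 alternatives. That of Sstr1 was lost in 6 of 24, each of which left out 1 library (wild type saline replicate 3 or 4, wild type LPS replicate 1, 2 or 3, or labelled Lcn2-/- LPS replicate 2; adjusted p of 0.052 to 0.064), and that of Sstr4 was lost without wild type LPS replicate 1 (-1.40, adjusted p = 0.053). Without saline replicate 4 labelled Lcn2-/- the Sstr4 difference was -1.20 and still called, and on log2(RPKM + 0.5) it was -0.92.

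The labels were also compared within each injection. After saline, labelled Lcn2-/- over wild type, 0 of the 10 genes were called by limma, where 0.0461% of all genes tested were, and 4 of the 10 had an unadjusted p under 0.05, as did 10.9% of all genes. Those 4 were Sstr4 (0.91 ± 0.25, adjusted p = 0.32), Sstr1 (0.32 ± 0.12, adjusted p = 0.41), Cck (0.15 ± 0.056, adjusted p = 0.41) and Pdyn (0.13 ± 0.044, adjusted p = 0.40), with higher estimates in labelled Lcn2-/- in each case. The Sstr4 libraries did not overlap between the labels after saline, as for 5.19% of all genes, and without saline replicate 4 the Sstr4 estimate was 0.65. After LPS 1 of the 10 genes was called, Pdyn (-0.14 ± 0.044, adjusted p = 0.042), where 15.8% of all genes were, 8.74% lower. Pdyn and Sstr1 did not overlap between labels after LPS, nor did 28% of all genes. The Pdyn call after LPS was lost in 12 of 25 alternatives, with adjusted p up to 0.10: without the filter, and without any 1 of wild type saline replicates 2, 3 and 4, labelled Lcn2-/- saline replicate 2, the 4 wild type LPS replicates and labelled Lcn2-/- LPS replicates 1, 3 and 4. For Sstr1 (-0.31 ± 0.12, adjusted p = 0.081) and Sstr4 (-0.54 ± 0.25, adjusted p = 0.16) the LPS groups did not pass. Each of the 4 groups enters several comparisons, so these share libraries. The difference of LPS effects is the label estimate after LPS minus that after saline. For Sstr4, Sstr1 and Pdyn the saline part, higher in labelled Lcn2-/-, was not called.

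**Figure D4:**
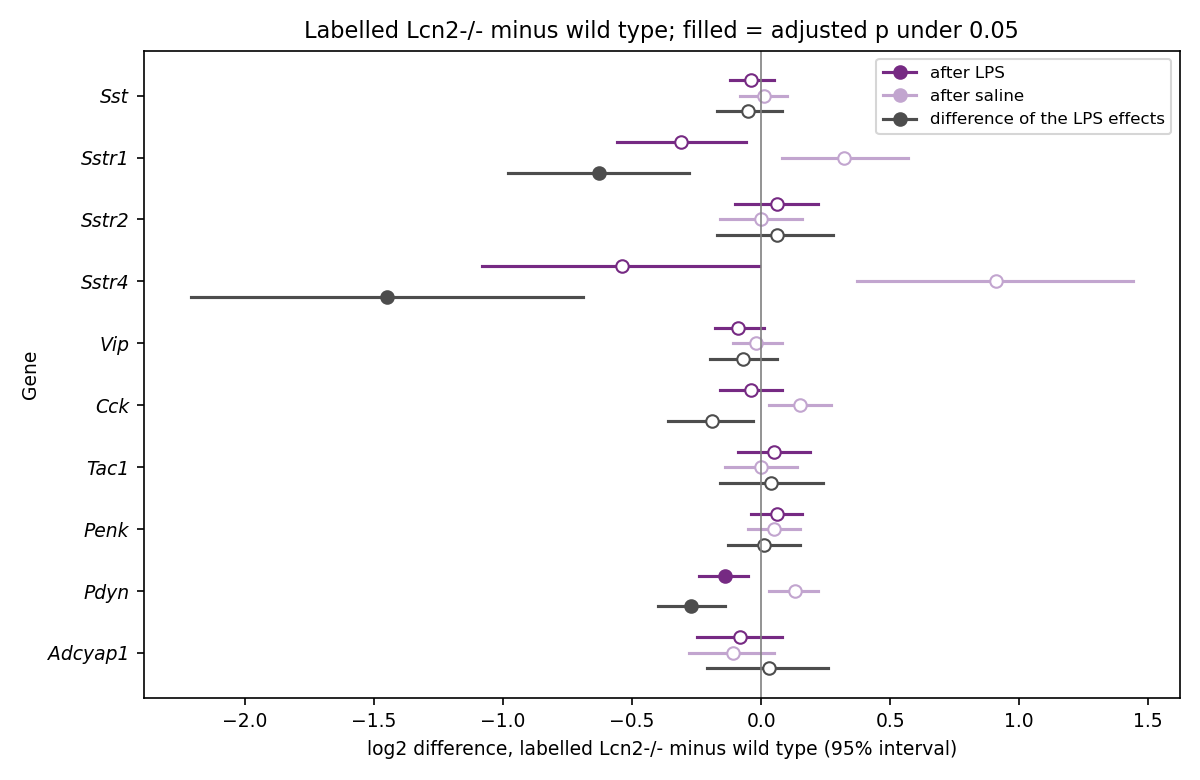
Log2 differences between labels for the 10 genes, labelled Lcn2-/- over wild type after LPS and after saline, and the difference of the LPS effects. Lines are 95% intervals, and filled symbols were called. In the difference of the LPS effects Sstr1, Sstr4 and Pdyn were called. Sstr4, Sstr1, Cck and Pdyn lie above 0 after saline and below 0 after LPS, and 1 of these values, Pdyn after LPS, was called.

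Other receptors of the same peptides were read from a list of 13, of which 9 passed the filter; Sstr5, Cckar, Tacr2 and Oprm1 did not reach 0.5 RPKM in enough libraries. After LPS 1 of the 9 was called higher and 5 lower in labelled Lcn2-/-, and 2 higher and 2 lower in wild type. Of all genes tested, 20.7% were called higher and 27.7% lower in labelled Lcn2-/-, and 11.4% higher and 13.9% lower in wild type. Cckbr, the cholecystokinin receptor that predominates in brain, fell most. It lay at 3.46, 2.89, 2.94 and 3.07 RPKM in labelled Lcn2-/- LPS libraries, against 7.26, 7.73, 7.00 and 7.97 RPKM in labelled Lcn2-/- saline libraries, and at 4.03, 3.40, 3.78 and 3.73 RPKM in wild type LPS libraries, against 7.72, 6.97, 6.92 and 7.67 RPKM in wild type saline libraries. No LPS library of either label reached a saline library. Its log2 fold change was -1.28 ± 0.068 in labelled Lcn2-/- (adjusted p = 4.8e-10) and -0.97 ± 0.068 in wild type (adjusted p = 2.3e-08), and after LPS it was lower in labelled Lcn2-/- than in wild type (-0.27 ± 0.068, adjusted p = 0.014). Sstr3, another somatostatin receptor, fell both in labelled Lcn2-/- (-0.38 ± 0.049, adjusted p = 1.2e-05) and in wild type (-0.27 ± 0.049, adjusted p = 6.6e-04). Vipr2, a receptor shared by VIP and PACAP, rose both in labelled Lcn2-/- (0.59 ± 0.13, adjusted p = 0.0022) and in wild type (0.53 ± 0.13, adjusted p = 0.0081). The delta opioid receptor Oprd1 (-0.65 ± 0.14, adjusted p = 0.0011) and the VIP receptor Vipr1 (-0.44 ± 0.083, adjusted p = 4.2e-04) fell in labelled Lcn2-/-, and the kappa opioid receptor Oprk1 rose in wild type (0.42 ± 0.091, adjusted p = 0.0024). Oprd1, Vipr1 and Oprk1 were not called under the other label. In the difference of LPS effects 0 of the 9 receptors were called, where 8.82% of all genes tested were. For so few genes a count of 0 is close to that share, so it says little of these receptors. Adcyap1r1, the PACAP receptor and the most abundant of the list, fell slightly in labelled Lcn2-/- (-0.14 ± 0.034, adjusted p = 0.0034) and did not pass in wild type (-0.04 ± 0.034, adjusted p = 0.43).

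Genes of the machinery that makes and packs the peptides were counted in the same way. Of 23 genes for prohormone processing and dense-core granules, 1 was called higher and 5 lower after LPS in labelled Lcn2-/-, and 3 higher and 3 lower in wild type, with medians of -0.01 in labelled Lcn2-/- and -0.04 in wild type. Under each label 17 of the 23 were uncalled. Of all genes tested, 48.3% were called in labelled Lcn2-/- and 25.3% in wild type. The count on this list was thus close to the share of all genes in wild type, and below it in labelled Lcn2-/-. Pcsk1, a prohormone convertase, fell in labelled Lcn2-/- (-0.64 ± 0.12, adjusted p = 3.8e-04), as did the granule protein genes Ptprn2 (-0.41 ± 0.094, adjusted p = 0.0023) and Vgf (-0.30 ± 0.065, adjusted p = 0.0015). Pcsk1, Ptprn2 and Vgf were not called in wild type. Of these, Ptprn2 alone was called in the difference of LPS effects (-0.49 ± 0.13, adjusted p = 0.036). Cpe, the carboxypeptidase that trims the cut peptides, was called neither in labelled Lcn2-/- (-0.01 ± 0.046, adjusted p = 0.91) nor in wild type (-0.06 ± 0.046, adjusted p = 0.37). Ece1, a peptide-degrading enzyme, rose in labelled Lcn2-/- (0.10 ± 0.031, adjusted p = 0.013) and in wild type (0.26 ± 0.031, adjusted p = 8.8e-06), and the convertase Pcsk2 rose in wild type (0.18 ± 0.038, adjusted p = 0.0021).

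Among 16 other forebrain peptide genes, 14 passed the filter, and 2 were called higher and 1 lower in labelled Lcn2-/-, against 1 higher and 3 lower in wild type. The shares called over all genes were 48.3% in labelled Lcn2-/- and 25.3% in wild type. Adm, which encodes adrenomedullin, a vasodilator peptide made by many cell types, rose both in labelled Lcn2-/- (1.02 ± 0.13, adjusted p = 9.0e-06) and in wild type (0.82 ± 0.13, adjusted p = 1.4e-04). Pthlh fell in labelled Lcn2-/- (-0.48 ± 0.14, adjusted p = 0.013) and in wild type (-0.69 ± 0.14, adjusted p = 0.0020). Npy, a peptide that many Sst interneurons also make, averaged 69.6 RPKM in labelled Lcn2-/- LPS libraries, against 75.8 RPKM in labelled Lcn2-/- saline libraries, and 66.4 RPKM in wild type LPS libraries, against 72.8 RPKM in wild type saline libraries. Its log2 fold changes did not pass in labelled Lcn2-/- (-0.12 ± 0.079, adjusted p = 0.21) or in wild type (-0.13 ± 0.079, adjusted p = 0.25).

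Of 24 activity-regulated genes, the class that CREB and neuronal firing are known to induce, 23 passed the filter. After LPS 3 were called higher and 15 lower in labelled Lcn2-/-, and 0 higher and 15 lower in wild type, with medians of -0.63 in labelled Lcn2-/- and -0.43 in wild type. Over all genes tested, 27.7% were called lower in labelled Lcn2-/- and 13.9% in wild type. The largest falls included the transcription factor gene Egr2 (-3.21 ± 0.25, adjusted p = 4.8e-08, in labelled Lcn2-/- and -2.62 ± 0.25, adjusted p = 8.0e-07, in wild type) and the synaptic gene Arc (-2.92 ± 0.16, adjusted p = 9.5e-10, in labelled Lcn2-/- and -1.77 ± 0.16, adjusted p = 6.0e-07, in wild type). On log2(RPKM + 0.5) the Egr2 values were -1.88 in labelled Lcn2-/- and -1.53 in wild type. Gadd45b rose in labelled Lcn2-/- (0.70 ± 0.080, adjusted p = 3.8e-06). Pcsk1, Scg2 and Vgf are on this list as well as on that of prohormone processing, so the counts of the 2 lists share genes. For comparison, the log2 fold changes of the peptide precursors lay between -0.45, for Adcyap1, and 0.20, for Vip, both in wild type.

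**Figure D5:**
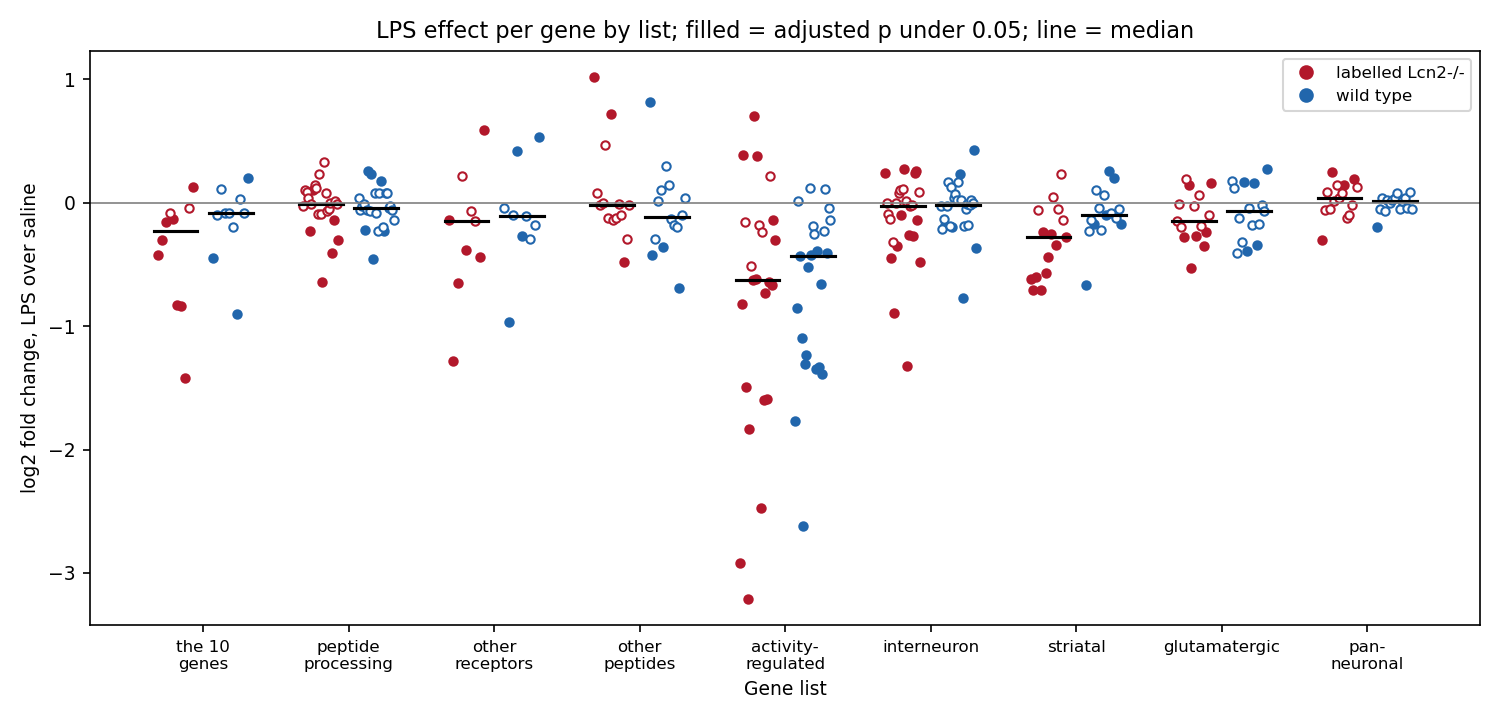
Log2 fold change of each tested gene after LPS, labelled Lcn2-/- and wild type, for 9 lists of genes, 1 point per gene. Most activity-regulated genes lie below 0 under both labels, and the pan-neuronal markers have medians of 0.04 in labelled Lcn2-/- and 0.01 in wild type.

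Markers of the neurons that make these peptides, and of other cells of the tissue, were counted beside them. Over all genes tested, LPS calls were 20.7% higher and 27.7% lower in labelled Lcn2-/-, and 11.4% higher and 13.9% lower in wild type. The difference of LPS effects called 8.82% of all genes, 4.92% lower, and the labels after LPS 15.8%. GABAergic interneuron markers gave 4 higher and 9 lower calls of 25 after LPS in labelled Lcn2-/-, and 2 higher and 4 lower in wild type. Their summed level ran from 548 to 607 RPKM in labelled Lcn2-/- LPS libraries, against 525 to 557 RPKM in labelled Lcn2-/- saline libraries, and from 544 to 582 RPKM in wild type LPS libraries, against 546 to 575 RPKM in wild type saline libraries. Their mean log2 RPKM, which weights each marker equally, was lower after LPS without overlap: 2.57 to 2.68 in labelled Lcn2-/- LPS libraries, against 2.74 to 2.80 in labelled Lcn2-/- saline libraries, and 2.68 to 2.73 in wild type LPS libraries, against 2.74 to 2.78 in wild type saline libraries. Pvalb and Calb1 are on both the interneuron and the cerebellum list, so the 2 summed levels share genes. Pvalb rose after LPS in labelled Lcn2-/- (0.24 ± 0.057, adjusted p = 0.0024) and was not called in wild type (-0.02 ± 0.057, adjusted p = 0.87). Lamp5 (0.27 ± 0.052, adjusted p = 6.2e-04) and Reln (0.26 ± 0.091, adjusted p = 0.025) also rose in labelled Lcn2-/-. The largest falls of interneuron markers there were Ndnf (-1.32 ± 0.19, adjusted p = 3.6e-05), Dlx5 (-0.89 ± 0.16, adjusted p = 2.4e-04) and Sox6 (-0.48 ± 0.11, adjusted p = 0.0025). Ndnf (-0.77 ± 0.19, adjusted p = 0.0064) and Sox6 (-0.37 ± 0.11, adjusted p = 0.021) fell in wild type too. Glutamatergic cortical and hippocampal markers gave 2 higher and 5 lower calls of 15 in labelled Lcn2-/-, and 3 higher and 2 lower in wild type, and their summed level was 805 to 891 RPKM in labelled Lcn2-/- LPS libraries, against 896 to 902 RPKM in labelled Lcn2-/- saline libraries, and 837 to 887 RPKM in wild type LPS libraries, against 824 to 900 RPKM in wild type saline libraries. Striatal projection neuron markers gave 0 higher and 10 lower calls of 15 in labelled Lcn2-/-, and 2 higher and 4 lower in wild type, and 5 of the 15 were lower in the difference of LPS effects. Their summed level was 225 to 237 RPKM in labelled Lcn2-/- LPS libraries, against 254 to 266 RPKM in labelled Lcn2-/- saline libraries, and 219 to 252 RPKM in wild type LPS libraries, against 235 to 239 RPKM in wild type saline libraries. Drd1, the dopamine receptor of the direct pathway neurons that also make dynorphin, fell in labelled Lcn2-/- (-0.71 ± 0.098, adjusted p = 2.5e-05), and Adora2a, a marker of the indirect pathway neurons that make enkephalin, fell in labelled Lcn2-/- (-0.62 ± 0.076, adjusted p = 7.8e-06) and in wild type (-0.67 ± 0.076, adjusted p = 5.6e-06). Drd1 was not called in wild type, where its geometric mean was 4.18 RPKM after LPS, against 4.91 RPKM after saline. Ppp1r1b (0.26 ± 0.044, adjusted p = 3.3e-04) and Rasd2 (0.20 ± 0.039, adjusted p = 0.0012), also striatal markers, rose in wild type. Cerebellum markers gave 7 higher and 3 lower calls of 15 in labelled Lcn2-/-, and 0 higher and 2 lower in wild type, and 5 of the 15 were higher and 0 lower both in the difference of LPS effects and between labels after LPS. Their summed level was 595 to 654 RPKM in labelled Lcn2-/- LPS libraries, against 551 to 586 RPKM in labelled Lcn2-/- saline libraries, and 533 to 606 RPKM in wild type LPS libraries, against 561 to 595 RPKM in wild type saline libraries. Microglia markers gave 1 higher and 9 lower calls of 10 in labelled Lcn2-/-, and 0 higher and 8 lower in wild type, with medians of -0.57 in labelled Lcn2-/- and -0.80 in wild type. Endothelial markers gave 2 higher and 6 lower calls of 10 in labelled Lcn2-/-, and 3 higher and 5 lower in wild type, and astrocyte markers gave 4 higher and 0 lower of 10 in both. The part of these marker shifts in the results for the peptides and receptors was not tested. Pan-neuronal markers gave 3 higher and 1 lower call of 15 in labelled Lcn2-/- and 0 higher and 1 lower in wild type, and no marker listed for interneurons, striatal neurons or neurons in general was below 0.5 RPKM in every library.

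Within groups some of the 10 genes varied together. Pearson's r was taken over the 16 libraries, on deviations from the group means. Of all pairs among the 10 genes the highest values were 0.682 for Sst with Cck, 0.676 for Sstr1 with Sstr4, 0.662 for Tac1 with Penk and 0.649 for Sstr2 with Vip. The lowest were -0.538 for Sstr4 with Tac1 and -0.521 for Sstr4 with Penk. All genes of a library share its tissue piece and its depth, so these values describe the libraries. Among all tested genes with a mean log2 RPKM of at least 1, those most like Sst were Higd2a (r = 0.883) and Psmd11 (r = 0.864), and those most like Sstr2 were Cnrip1 (r = 0.899) and Cdkn2d (r = 0.885). Vip was most like Pdzd11 (r = 0.902), Adcyap1 most like Sncg (r = 0.90), Pdyn most like Cdc25b (r = 0.838) and Cck most like Pdcd2l (r = 0.893). For the other 4 the closest gene was Smad3 for Sstr1 (r = 0.843), AV039307 for Sstr4 (r = 0.918), Cxxc5 for Tac1 (r = 0.875) and Zfp428 for Penk (r = 0.858).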

How the data were processed

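Hemi-brains were sonicated, their total RNA was treated with DNase I on the column, and Illumina libraries were made, per the labels. The values deposited by the authors are log2 RPKM after conditional quantile normalization, 1 column per sample. The submitters' processing notes give the build mm10. The sources used here do not give the aligner, the counter, its use of strand or the annotation. There were 0 unused columns of sample values. Depth per sample is unknown, so no counting interval is given.

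The 10 genes and all gene lists were chosen with earlier results of these data known. Genes named from the lists are among those with the largest called change in each direction, at most 3 each way, or the uncalled one with the highest mean. Sstr3 met this in wild type, and its value in labelled Lcn2-/- is given beside that. Adcyap1r1 in labelled Lcn2-/- was added after its value was seen. Symbols and positions came from GENCODE vM21 (GRCm38), which matched 32695 of 33289 IDs (98.2%).

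Genes with a log2 RPKM of at least -1 (0.5 RPKM) in at least 3 samples were tested, which kept 17349 and removed 15940. A group-means model over all 16 libraries was fitted with limma 3.58.1 in R 4.3.3, moderated along the trend of the mean, with 5 two-sided contrasts: LPS over saline in each genotype, labelled Lcn2-/- over wild type after each injection, and the difference of the LPS effects. P-values were adjusted by Benjamini-Hochberg over all 17349 genes, and a gene was called under 0.05. The procedure was tested on simulated normal values. Changes of 0.5 on the log2 scale were called in the right direction for 43.3% of changed genes in the difference of LPS effects. In the other contrasts that share was 62.7% to 77.6%. False calls made up 3.38% to 5.59% of calls. Far fewer genes were changed in the simulation than were called after LPS in these data. Alternatives were log2(RPKM + 0.5), no filter or a stricter one, median centring, quantile normalization, removal of GC and length trends, only the groups of a contrast, array weights, no trend in moderation, and each library left out. Promoter windows were RefSeq's (GRCm38.p6). Figures used matplotlib 3.10.9 in Python 3.11.15.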

Additional observations from a re-analysis of the deposited data

Results flagged for a closer look

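Of 40 groups of 4 libraries (10 genes in 4 groups), 4 held a library set well apart from the other 3; chance alone flags about 1 group in 20. In log2 RPKM, Sstr2 was at 2.04 in wild type saline replicate 1, against 1.80 to 1.82 in the others, and Sstr4 was at 1.32 in labelled Lcn2-/- saline replicate 4, against 0.24 to 0.42. Adcyap1 was at 2.35 in labelled Lcn2-/- LPS replicate 1, against 2.72 to 2.78, and at 3.00 in labelled Lcn2-/- saline replicate 4, against 3.08 to 3.09. Saline replicate 4 labelled Lcn2-/-, which held 2 of these 4 values, is the library with the most genes at 0.5 RPKM. LPS replicate 1 labelled Lcn2-/- had the lowest mean log2 RPKM of hypothalamus markers, 1.133, against 1.633 to 2.355 in the other libraries. Whether this bears on its Adcyap1 value was not tested. The LPS effect differed between labels, by limma's test of the difference, for Sstr1 (-0.63 on the log2 scale, labelled Lcn2-/- minus wild type), Sstr4 (-1.45) and Pdyn (-0.27).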

How the results depend on the processing

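No log2 fold change of the 10 genes that was called turned its direction in any alternative, and 40 of the 50 member results kept their side of the threshold throughout. Calls were lost in at least 1 alternative for 5 results (Sst and Vip after LPS in labelled Lcn2-/-, Pdyn between labels after LPS, and the differences of LPS effects of Sstr1 and Sstr4), with the values given above, and gained in at least 1 for 5 others. The count of the 10 called between labels after LPS, 1 in the main analysis, was 0 without a filter, 2 with only the groups of the contrast, 4 with array weights, and 0 to 2 when 1 library was left out. For the difference of LPS effects it was 1 to 3 with a library left out, with 1 left without wild type LPS replicate 1. Over all genes, no filter gave 13790 calls for LPS in wild type (4389 in the main analysis), 17808 in labelled Lcn2-/- (8386), 3 between labels after saline (8) and 905 for the difference of LPS effects (1530), with the median of all genes at -0.219 in wild type and -0.321 in labelled Lcn2-/-. With only the groups of the contrast, 3 genes were called between labels after saline and 4393 after LPS (2739 in the main analysis). Array weights gave 34, 5295 and 3030 for the last 3 comparisons. With a library left out, all-gene calls ran from 3 to 13 between labels after saline, from 1511 to 5169 after LPS and from 740 to 2270 for the difference; 5169 was reached without labelled Lcn2-/- saline replicate 4. Removing GC and length trends turned the split of all LPS calls to 4441 higher and 4023 lower in labelled Lcn2-/- (main analysis 3588 and 4798) and to 2449 higher and 1986 lower in wild type (1980 and 2409), while Sst alone among the 10 lost a call. The causes were not tested. No paired analysis was possible because the labels carry no replicate numbers that groups share. Depth is unknown, which limits most what can be said of Sstr4, at 0.85 RPKM.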
